A study of Mus musculus with 12 samples.

Results

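Expression of 10 neural genes was followed in mouse induced pluripotent stem cells (iPSCs) before and after 4 days of differentiation. The genes are the SOX transcription factors Sox1, Sox3 and Sox11, the paired box factor Pax6, the basic helix-loop-helix (bHLH) factors Neurog1, Neurog2, Neurod1 and Hes5, the intermediate filament gene Nes and the tubulin gene Tubb3. They were chosen by name from neural development, and each is represented by its only probe set with that symbol alone. They are 10 of 19938 genes measured on 12 Affymetrix arrays. Total RNA came from undifferentiated iPSCs at day 0, from spontaneously differentiated cells at day 4, from cells put through an optimised cardiac differentiation and taken at day 4, and from a day 4 population enriched in cardiac progenitor cells (CPCs) by fluorescence-activated sorting for FLK1 and PDGFRα. Each group had 3 arrays, and day 0 was the study's control. The iPSC line, its clone number and the animals it came from are not given in the sources used here, and nothing in the labels says that replicates were separate cultures. P-values then cover only how far these samples differ from each other, which may be technical.

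In the embryo, SOXB1 proteins such as Sox1 and Sox3 mark the neural plate and hold cells as dividing neural progenitors, and Pax6 patterns the forebrain, eye and spinal cord. The proneural proteins Neurog1 and Neurog2 start neuronal differentiation by binding E-boxes together with E proteins, and Neurod1 acts after them in the same cascade. Notch signalling opposes this step through Hes5, a repressor whose gene is switched on by the Notch partner RBPJ. Sox11 is a SOXC protein of immature neurons and many embryonic tissues, nestin (Nes) is the intermediate filament of neural progenitors and also of embryonic muscle and endothelium, and Tubb3 encodes the β-tubulin of neurons.

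The 250 bases before the start site are shown for the 4 members that passed the test in at least 1 comparison with day 0, because 2 of them rose and 2 fell. They are RefSeq sequences of GRCm38.p6, read 5′ to 3′ on the strand of the gene, with E-boxes (CANNTG, a palindrome that reads the same class on both strands) in capitals. Sox11 is at chr12:27342719-27342968 on the minus strand, Nes at chr3:87970843-87971092 on the plus strand, Pax6 at chr2:105668646-105668895 on the plus strand (the upstream one of its 2 listed starts) and Neurod1 at chr2:79456637-79456886 on the minus strand.
Sox11: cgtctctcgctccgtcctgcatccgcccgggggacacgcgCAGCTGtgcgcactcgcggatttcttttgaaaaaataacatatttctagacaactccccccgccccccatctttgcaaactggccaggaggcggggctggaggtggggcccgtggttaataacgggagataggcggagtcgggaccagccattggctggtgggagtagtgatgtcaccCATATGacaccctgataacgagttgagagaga
Nes: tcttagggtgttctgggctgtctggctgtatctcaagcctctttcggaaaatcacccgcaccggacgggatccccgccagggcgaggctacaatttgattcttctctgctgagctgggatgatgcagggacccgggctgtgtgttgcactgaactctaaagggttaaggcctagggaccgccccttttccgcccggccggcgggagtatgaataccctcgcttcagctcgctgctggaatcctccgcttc
Pax6: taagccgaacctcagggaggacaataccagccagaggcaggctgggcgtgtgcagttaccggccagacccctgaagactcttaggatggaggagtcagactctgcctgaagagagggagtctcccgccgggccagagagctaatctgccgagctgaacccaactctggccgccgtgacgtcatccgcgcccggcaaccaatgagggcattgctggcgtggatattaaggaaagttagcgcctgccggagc
Neurod1: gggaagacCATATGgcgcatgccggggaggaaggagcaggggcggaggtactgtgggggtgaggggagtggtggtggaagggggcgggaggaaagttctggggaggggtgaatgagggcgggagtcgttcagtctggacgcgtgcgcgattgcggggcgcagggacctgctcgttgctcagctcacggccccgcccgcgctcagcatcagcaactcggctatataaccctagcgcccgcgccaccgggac
The Sox11 window held 2 E-boxes, CAGCTG and, 32 bases before the start, CATATG. Neurod1 held CATATG 242 bases before its start, and the Nes window and this Pax6 window held no CANNTG. The window of the other Pax6 start, at chr2:105682213-105682462 and not shown, held 1. Of 32851 RefSeq windows of the same length, 66.2% held a CANNTG and 3.46% a CATATG. Sequences of this length were matched for 9 of the 10 members, Sox3 being the other.

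The Hes5 window is shown only at its 2 matches to the RBPJ motif (TGGGAA on either strand, here in capitals), at chr4:154960685-154960714 and chr4:154960829-154960858 on the plus strand of GRCm38.p6. Of all windows, 21.6% held this motif.
Hes5 first match: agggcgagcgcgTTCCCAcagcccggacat
Hes5 second match: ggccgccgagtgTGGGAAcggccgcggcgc

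Values are log2 signals after RMA normalisation, so a difference of 1 is a 2-fold change. A gene was called where limma's adjusted p was under 0.05 and the difference at least 1. Of the sorted libraries 2 went against their labels, which bears on every value of the sorted group. Kdr, which encodes the sorted surface protein FLK1, read 10.23 in the library labelled sorted CPC replicate 1 but 6.25 and 6.03 in those labelled replicates 2 and 3, near its 5.50 to 5.78 at day 0. Pdgfra, for the other sorted protein, read 11.13, 8.47 and 8.29 in these libraries and 8.75 to 9.14 at day 0. In cardiac replicate 1 Kdr read 5.42, against 10.81 and 9.01 in cardiac replicates 2 and 3. This library is not labelled as sorted, so its low Kdr is unlike its group but does not contradict its label. Pdgfra read 9.42 in it, against 10.26 and 9.60. The members' differences from day 0 in cardiac and sorted cells are therefore given over all arrays and also without those 3, called the doubted libraries here, which leaves 1 sorted array, assumed to vary like the other groups. Within groups the lowest correlation between arrays over all genes was 0.989 at day 0, 0.992 in spontaneous, 0.973 in cardiac and 0.966 in sorted cells. No background level was measured, and Neurod1, Neurog1, Neurog2 and Tubb3 lay below the array's median gene on all 12 arrays and Pax6 on all but 1, so how far these signals stand above background is not known.

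**Figure D1:**
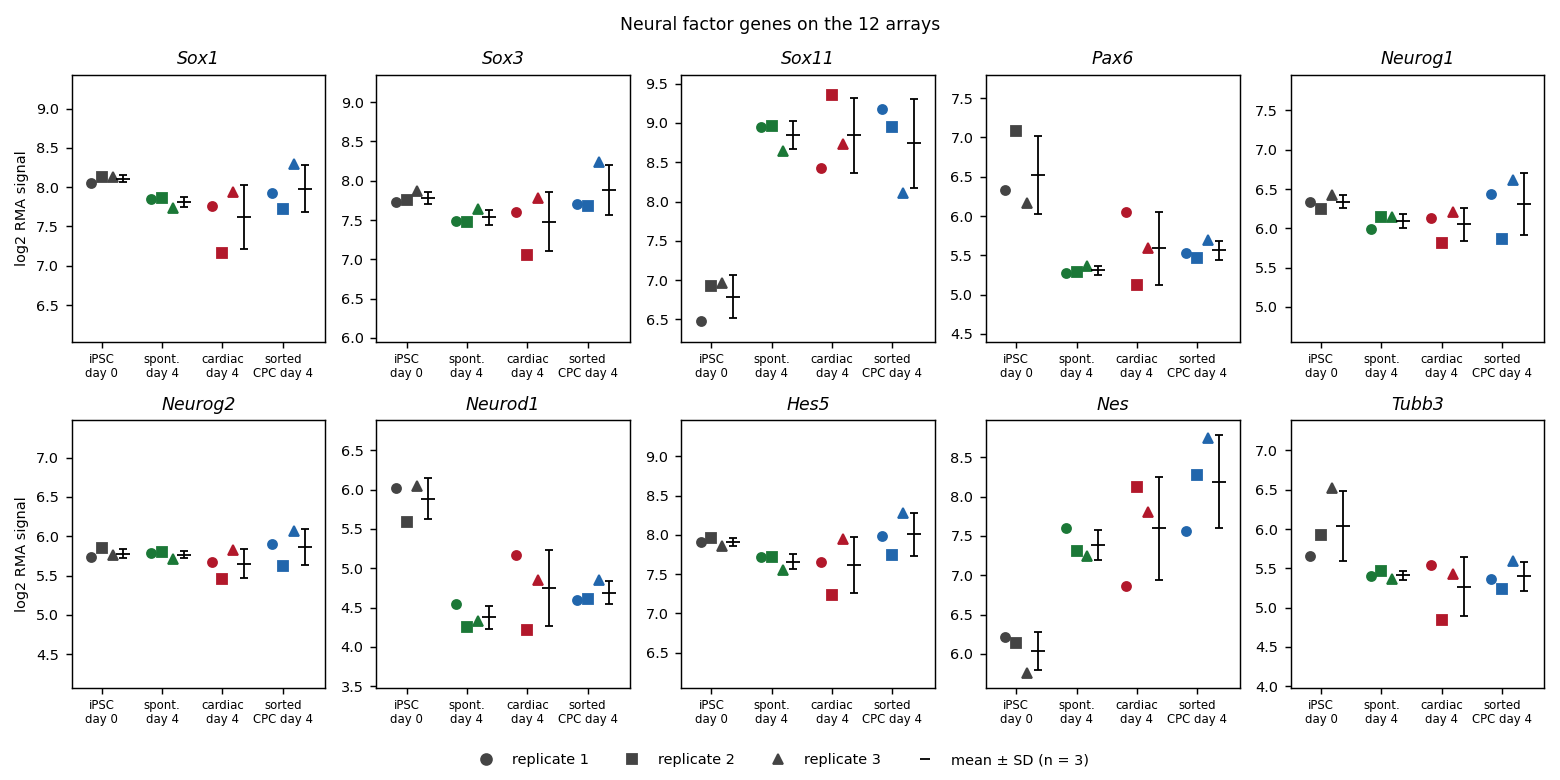
Log2 signal (vertical axis) of each of the 10 genes on every array, by group, with the mean ± SD of the 3 arrays beside each group and a marker shape per replicate. Sox11 and Nes sit higher on all 9 day 4 arrays than on any day 0 array, and Pax6, Neurod1 and Tubb3 sit lower.

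The members divided into genes that rose, genes that fell and genes with no call. Sox11 and Nes rose and Neurod1 fell in all 3 day 4 groups, and Pax6 fell in spontaneous cells. In spontaneous cells 4 of 10 members were called, where 3.57% of all genes were: 2 were higher (1.99% of all genes) and 2 lower (1.57%). In cardiac cells 3 of 10 were called against 2.2% of all genes, 2 higher (1.26%) and 1 lower (0.943%). In sorted cells 3 of 10 were called against 2.11%, 2 higher (0.787%) and 1 lower (1.32%). Without the 3 doubted libraries 4 members were called in spontaneous cells and 4 in cardiac cells, where 4.18% and 4.04% of all genes were. For sorted cells, where 1 array is then left, the differences are given gene by gene. These comparisons share the 3 day 0 arrays, so they are not independent of each other. By limma's moderated F test over the 4 groups, 4 of 10 members passed at an adjusted p under 0.05, and so did 5.86% of all genes. In bulk RNA, fewer cells of a type and less RNA per cell cannot be told apart.

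**Figure D2:**
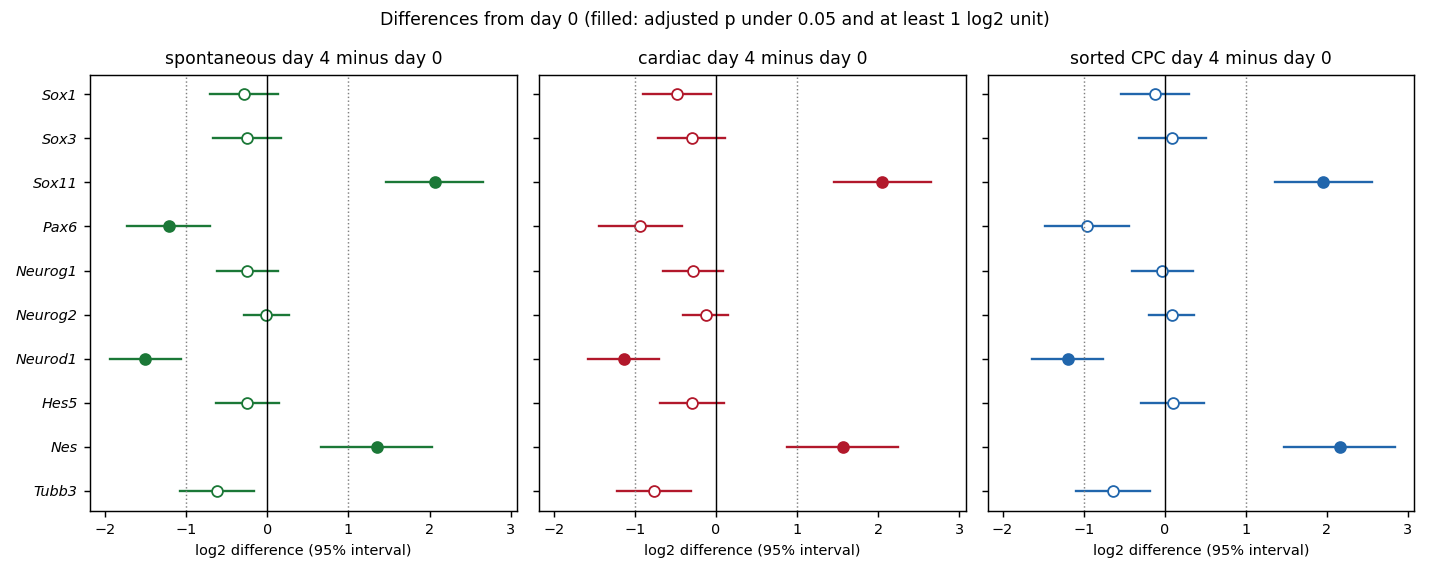
Difference from day 0 on the log2 scale (horizontal axis) with its 95% interval for each gene, in spontaneous, cardiac and sorted cells; filled points passed both the adjusted p and the minimum difference. Sox11, Nes and Neurod1 are filled in all 3 panels and Pax6 in the spontaneous panel only, although its intervals exclude 0 in each.

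Sox11 rose to about the same level in the 3 day 4 groups. It read 6.48, 6.93 and 6.96 on the day 0 arrays, 8.95, 8.96 and 8.65 in spontaneous cells, 8.43, 9.36 and 8.74 in cardiac cells and 9.18, 8.95 and 8.10 in sorted cells. Every day 4 array lay above every day 0 array, and the 3 day 4 groups overlapped. The group means were 6.79 ± 0.27, 8.85 ± 0.18, 8.84 ± 0.47 and 8.74 ± 0.57 (SD, n = 3 each). Sox11 was 4.18-fold higher than at day 0 in spontaneous cells (log2 difference 2.06, SE 0.28, limma adjusted p = 0.00104), 4.15-fold in cardiac cells (2.05, adjusted p = 0.00134) and 3.88-fold in sorted cells (1.96, adjusted p = 0.00195). Without the libraries labelled sorted CPC replicates 2 and 3 the sorted difference was 2.39 (adjusted p = 0.00216). With cardiac replicate 1 left out too, the cardiac difference was 2.26 (adjusted p = 4.77e-05).

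Sox1 and Sox3, the SOXB1 members, did not pass in any comparison. Sox1 read 8.05 to 8.13 at day 0, 7.74 to 7.86 in spontaneous cells, 7.17 to 7.94 in cardiac cells and 7.72 to 8.30 in sorted cells. Its arrays at day 0 lay above all spontaneous and cardiac arrays and inside the sorted range. The differences from day 0 were -0.29, -0.48 and -0.12 (limma adjusted p = 0.403, 0.166 and 0.799), and the cardiac interval ran from -0.90 to -0.06. Without the 3 doubted libraries the cardiac and sorted differences were -0.55 and -0.18 (adjusted p = 0.0733 and 0.72). Sox3 read 7.72 to 7.87 at day 0, 7.47 to 7.65 in spontaneous cells, 7.06 to 7.78 in cardiac cells and 7.68 to 8.24 in sorted cells. Its differences were -0.25, -0.30 and 0.09 (adjusted p = 0.477, 0.367 and 0.855), and the last turned to -0.08 without the libraries labelled sorted CPC replicates 2 and 3. Without cardiac replicate 1 as well the cardiac value was -0.36.

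Pax6 was highest at day 0. It read 6.33, 7.08 and 6.16 there, 5.27, 5.28 and 5.37 in spontaneous cells, 6.05, 5.12 and 5.60 in cardiac cells and 5.52, 5.47 and 5.70 in sorted cells. All day 4 arrays lay below all day 0 arrays, with cardiac replicate 1 closest to them. Pax6 fell 2.32-fold in spontaneous cells (log2 difference -1.22, SE 0.24, limma adjusted p = 0.00752), a call that was lost without iPSC replicate 2, when the difference was -0.94. In cardiac and sorted cells the differences of -0.94 and -0.96 had adjusted p = 0.0353 and 0.0338 but were under the minimum of 1. With cardiac replicate 1 also left out, the cardiac difference was -1.17 (adjusted p = 0.00609) and passed; it passed as well with iPSC replicate 3 alone (-1.12, adjusted p = 0.0313) or cardiac replicate 1 alone (adjusted p = 0.00926) left out. For sorted cells the difference without replicates 2 and 3 was -0.9995 (adjusted p = 0.116). Over all arrays, repeating the quantile normalisation moved it just past the minimum, to -1.0005, and it also passed without iPSC replicate 3 (-1.14, adjusted p = 0.0301) or without the library labelled sorted CPC replicate 3 (-1.03, adjusted p = 0.0385).

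Among the bHLH activators, Neurod1 fell in every day 4 group. It read 6.03, 5.58 and 6.05 at day 0, 4.54, 4.26 and 4.33 in spontaneous cells, 5.17, 4.22 and 4.86 in cardiac cells and 4.601, 4.61 and 4.86 in sorted cells. No day 4 array reached the lowest day 0 array, and cardiac replicate 1 was the highest of the 9. The means were 5.89 ± 0.26 at day 0, 4.38 ± 0.15 in spontaneous, 4.75 ± 0.48 in cardiac and 4.69 ± 0.15 in sorted cells (SD, n = 3 each). On these dim signals Neurod1 was 2.85-fold lower in spontaneous cells (log2 difference -1.51, SE 0.20, limma adjusted p = 0.00102), 2.20-fold lower in cardiac cells (-1.14, adjusted p = 0.00627) and 2.29-fold lower in sorted cells (-1.20, adjusted p = 0.00471). The cardiac call was lost without cardiac replicate 2, when the difference was -0.87. Without the libraries labelled sorted CPC replicates 2 and 3 the sorted difference was -1.29 (adjusted p = 0.0269), and without cardiac replicate 1 as well the cardiac difference was -1.35 (adjusted p = 0.000732).

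Neurog1 and Neurog2, which act upstream of Neurod1, did not pass. Neurog1 ran from 6.25 to 6.42 at day 0, 5.99 to 6.14 in spontaneous cells, 5.81 to 6.20 in cardiac cells and 5.87 to 6.62 in sorted cells. Its differences from day 0 were -0.25, -0.29 and -0.03 (limma adjusted p = 0.433, 0.344 and 0.955), the last turning to 0.10 without the libraries labelled sorted CPC replicates 2 and 3. Without cardiac replicate 1 as well the cardiac value was -0.33. Neurog2 stayed between 5.45 and 6.07 on all 12 arrays. Its differences were -0.01, -0.13 and 0.09 (adjusted p = 0.967, 0.562 and 0.786), and the spontaneous value turned positive under each other scaling tried (0.06 to 0.07). The 95% intervals of Neurog2 ran from -0.29 to 0.27, -0.41 to 0.15 and -0.19 to 0.37. Without the 3 libraries the cardiac and sorted values were -0.14 and 0.13.

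Hes5, the Notch-induced repressor, also had no call. It read 7.86 to 7.95 at day 0, 7.55 to 7.72 in spontaneous cells, 7.23 to 7.95 in cardiac cells and 7.74 to 8.28 in sorted cells. Only the spontaneous arrays lay wholly below day 0. The differences were -0.25, -0.29 and 0.10 (limma adjusted p = 0.455, 0.351 and 0.838), and without the 3 libraries the cardiac and sorted values were -0.32 and 0.08.

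Nes rose in each day 4 group. It read 6.21, 6.14 and 5.76 at day 0, 7.60, 7.31 and 7.25 in spontaneous cells, 6.87, 8.12 and 7.81 in cardiac cells and 7.56, 8.27 and 8.74 in sorted cells. Cardiac replicate 1 was the lowest day 4 array, and the library labelled sorted CPC replicate 3 the highest. The means were 6.04 ± 0.25, 7.39 ± 0.19, 7.60 ± 0.65 and 8.19 ± 0.59 in this order of groups (SD, n = 3 each). Nes was 2.55-fold higher in spontaneous cells (log2 difference 1.35, SE 0.32, limma adjusted p = 0.0178), 2.95-fold in cardiac cells (1.56, adjusted p = 0.0129) and 4.46-fold in sorted cells (2.16, adjusted p = 0.00229). The spontaneous call was lost on leaving out either of iPSC replicates 2 and 3 or any spontaneous array (adjusted p up to 0.0653). The cardiac call was lost on leaving out iPSC replicate 3 or either of cardiac replicates 2 and 3 (up to 0.0589). The sorted call held with any 1 array left out. It was 1.53 (adjusted p = 0.0352) without the libraries labelled sorted CPC replicates 2 and 3, which are the arrays with the most Nes signal and a Kdr signal near day 0. With cardiac replicate 1 left out as well, the cardiac difference was 1.93 (adjusted p = 4.91e-05).

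Tubb3 read 5.66, 5.92 and 6.53 at day 0, 5.41, 5.47 and 5.36 in spontaneous cells, 5.54, 4.84 and 5.43 in cardiac cells and 5.36, 5.24 and 5.59 in sorted cells. All 9 day 4 arrays lay below all day 0 arrays, but the day 0 arrays were spread widely (SD 0.44). The differences of -0.62, -0.77 and -0.64 did not pass (limma adjusted p = 0.0851, 0.0501 and 0.111). Without the 3 libraries the cardiac and sorted values were -0.903 and -0.68 (adjusted p = 0.0203 and 0.171), both under the minimum.

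Counted by overlap alone, 9 of 10 members were separated from day 0 in spontaneous cells (41% of all genes), 7 in cardiac cells (29%) and 5 in sorted cells (21.5%). All 9 day 4 arrays were above day 0 for 2 members (4.65% of all genes) and below it for 3 (5.15%). The median difference over the 10 members was -0.25, -0.30 and 0.03 in spontaneous, cardiac and sorted cells, beside -0.03, -0.05 and 0.03 over all genes.

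Among the day 4 groups no member was called. Limma called 0 of 10 members and 0% of all genes between cardiac and spontaneous cells, 0 of 10 and 0% between sorted and cardiac cells, and 0 of 10 and 0.00502% between sorted and spontaneous cells. At an unadjusted p under 0.05 the member counts were 0, 0 and 1, where 3.73%, 15.7% and 11.6% of all genes passed. The arrays did not overlap for 0, 0 and 4 members (8.99%, 13.1% and 19.6% of all genes), the 4 being Sox3, Pax6, Neurod1 and Hes5, each higher in sorted than in spontaneous cells. The 1 member with an unadjusted p under 0.05 was Nes, whose arrays overlapped. It was 0.81 higher in sorted than in spontaneous cells (95% interval 0.12 to 1.49, limma adjusted p = 0.38). Nes means thus ran from day 0 through spontaneous and cardiac to sorted cells, but spontaneous and cardiac overlapped, and sorted exceeded cardiac by 0.59 (adjusted p = 0.354), a difference that turned to -0.04 without the libraries labelled sorted CPC replicates 2 and 3. Without cardiac replicate 1 as well, Nes in sorted cells differed by -0.403 from cardiac and by 0.17 from spontaneous cells (adjusted p = 0.338 and 0.712), and 0 members were called between day 4 groups. The day 4 means of Sox11 lay within 8.74 to 8.85 and those of Neurod1 within 4.38 to 4.75, and no neighbours in either order passed.

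**Figure D3:**
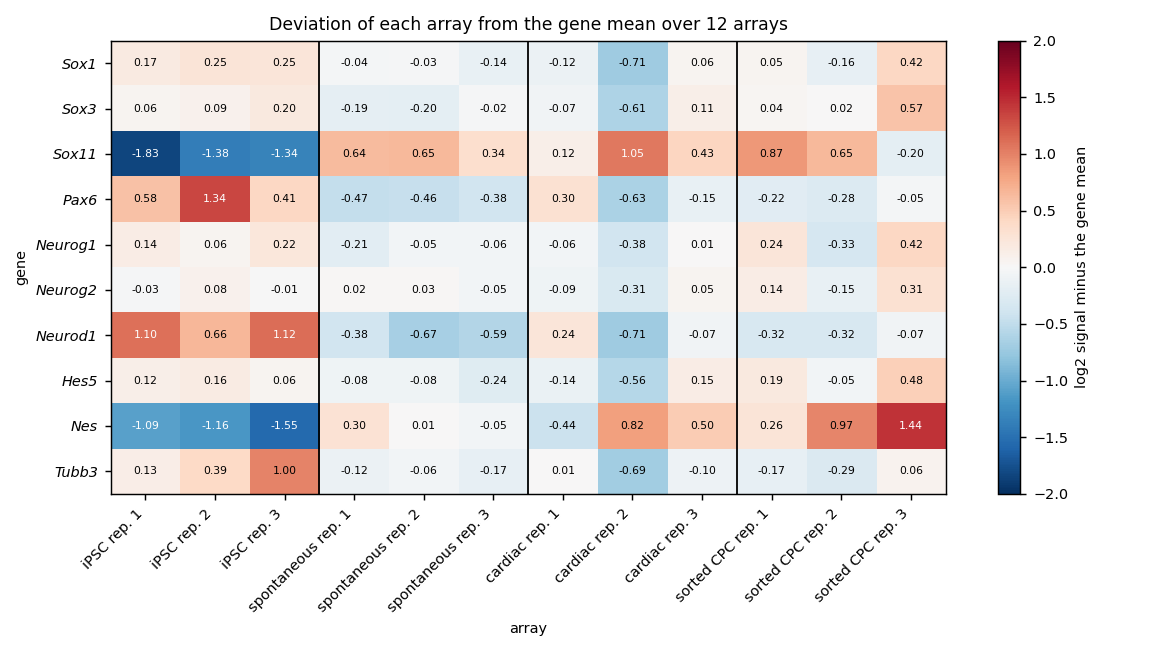
Each array's log2 signal minus the gene's mean over 12 arrays, for the 10 genes (rows) and the arrays by group (columns); red is above the mean and blue below. Sox11 and Nes are blue at day 0 and Neurod1 and Pax6 red, while Sox1, Sox3, Neurog1, Neurog2 and Hes5 are lowest on cardiac replicate 2 and highest on sorted CPC replicate 3.

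The 5 members Sox1, Sox3, Neurog1, Neurog2 and Hes5 varied together from array to array. Each was lowest on cardiac replicate 2 and highest on the library labelled sorted CPC replicate 3. Pax6, Neurod1 and Tubb3 were also lowest on cardiac replicate 2 (5.12, 4.22 and 4.84), but were highest at day 0. Both extremes together held for 9.91% of all genes, for 15.8% of those with a mean signal at or below the median gene and for 4.01% of those above it. Pearson's r over the 12 arrays ran from 0.81 to 0.93 for the 10 pairs of these 5 (median 0.85), and from 0.75 to 0.97 after the group means were removed. With group means removed, Neurod1 and Tubb3 also ran with Sox1 (r = 0.68 and 0.68) and with Sox3 (0.68 and 0.69). Sox11 ran opposite to both (-0.69 and -0.80), so the 5 genes are not sharply set apart. The 5 genes deviated from their group means by -0.34 on average on cardiac replicate 2 and by 0.29 on sorted CPC replicate 3, where the median of all genes deviated by -0.01 and 0.01. The 5 are set out by their extremes on these 2 arrays, so large deviations there follow in part from that choice. On cardiac replicate 3 and sorted CPC replicate 2 they deviated by 0.25 and -0.28, and the median of all genes by -0.0012 and -0.03. The arrays share their normalisation, and these correlations are a description.

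Over the same arrays Sox11 ran opposite to Neurod1 (r = -0.94) and Pax6 (r = -0.86) and with Nes (r = 0.75), and Pax6 ran with Neurod1 (r = 0.84). Once group means were removed, Sox11 still ran opposite to Neurod1 (r = -0.70) and, less closely, to Pax6 (r = -0.45). Sox11 with Nes (r = -0.07) and Pax6 with Neurod1 (r = 0.27) became weak. The values of these last pairs over 12 arrays mostly repeat differences between groups, such as the step between day 0 and day 4. Among 837 genes with an above-median mean and a moderated F test adjusted p under 0.05, those most like Sox11 were Rragd, Gtf2i and Stag2 (r = 0.99, 0.99 and 0.98 over 12 arrays). For Neurod1 they were Mcam, Ppm1j and Ooep, led by Mcam at 0.97. The nearest to Pax6 were Klf4 at 0.94, Fam178b and Sema5b, and to Nes Map3k15 at 0.97, Ppp4r4 and Jph1. Tubb3 was nearest to Hsd17b14 at 0.95, Ngfr and Fam25c. For Sox1, Sox3, Neurog1, Neurog2 and Hes5 the best r among these candidates ran from 0.61 to 0.80, and Nmnat2 was among the 3 nearest genes of all 5. The candidates had to differ between groups, which these members did not by the F test, and to have an above-median mean. Whether the lower r follows from that choice was not tested.

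**Figure D4:**
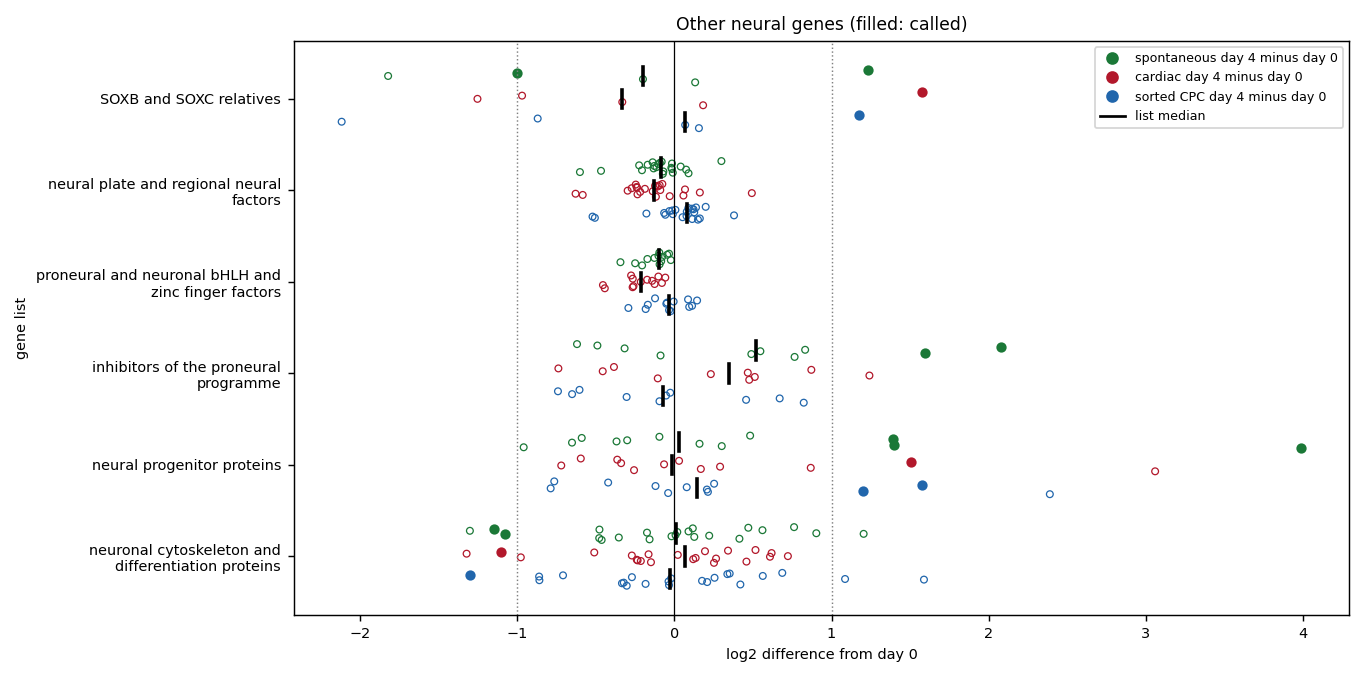
Log2 differences from day 0 (horizontal axis) of the genes in 6 lists related to the members, for spontaneous, cardiac and sorted cells; points are genes, filled where called, and black ticks are list medians. Most genes lie near 0, and Cdh2 has the largest rise.

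Related neural genes were measured for 84 of 89 names in 6 lists. In spontaneous cells 6 rose and 3 fell (10.7%, where 3.57% of all genes were called), in cardiac cells 2 rose and 1 fell (3.57% against 2.2%), and in sorted cells 3 rose and 1 fell (4.76% against 2.11%). Their median differences were -0.08, -0.12 and -0.01. Without the 3 doubted libraries 7 rose and 5 fell in spontaneous cells (14.3%, with 4.18% of all genes), 7 rose and 4 fell in cardiac cells (13.1% and 4.04%), and 6 rose and 5 fell in sorted cells (13.1% and 5.11%). These lists were chosen with earlier results of the data known and are described by counts alone.

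Of 5 SOX relatives, Sox4, a SOXC protein like Sox11, rose in all 3 groups (1.23, 1.58 and 1.18, limma adjusted p = 0.00617, 0.00213 and 0.0107). Its sorted call ended when iPSC replicate 2 (adjusted p = 0.0507) or the library labelled sorted CPC replicate 1 (difference 0.90) was left out, and without the 3 doubted libraries the cardiac and sorted differences were 1.695 and 1.73. Sox21, a SOXB2 repressor, fell in spontaneous cells (-1.002, adjusted p = 0.00545), at the edge of the minimum. The call ended under median centring and cyclic loess, and also when iPSC replicate 2 or spontaneous replicate 2 was dropped. In cardiac and sorted cells Sox21 differed by -0.97 and -0.87 (adjusted p = 0.00876 and 0.0152), under the minimum, and passed there without iPSC replicate 1; in cardiac cells it also passed without cardiac replicate 3. Sox2, the SOXB1 factor shared by pluripotent and neural cells, differed by -1.82, -1.25 and -2.12 and did not pass (adjusted p = 0.0787, 0.243 and 0.0661). With the libraries labelled sorted CPC replicates 2 and 3 left out it passed in all 3 groups, at -1.82, -1.25 and -3.97 (adjusted p = 0.0012, 0.01 and 0.000299), and in places without just 1 of the sorted libraries: spontaneous cells passed without replicate 1 or 2, cardiac cells without replicate 1 and sorted cells without replicate 2. With the 6 compared arrays alone it passed in spontaneous and cardiac cells (adjusted p = 0.000193 and 0.0177).

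Regional factors of the neural plate gave 0 calls among 22 in each comparison by limma, with 2, 3 and 3 at an unadjusted p under 0.05, a threshold that 24%, 22.4% and 19.3% of all genes passed. Gbx2, a hindbrain boundary factor also expressed in pluripotent cells, differed by -0.47, -0.63 and -0.52 (adjusted p = 0.0497, 0.0188 and 0.0462), under the minimum, with -0.62 and -0.31 in cardiac and sorted cells without the 3 doubted libraries (adjusted p = 0.00986 and 0.292). The other proneural and neuronal factors, 13 in number, likewise gave 0 calls in each comparison, with 0, 3 and 0 at an unadjusted p under 0.05 against the same 24%, 22.4% and 19.3% of all genes. Insm1, a zinc finger factor of newborn neurons and endocrine cells, differed by -0.34, -0.45 and -0.29, and by -0.55 and -0.30 in cardiac and sorted cells without the 3 libraries.

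Of 10 inhibitors of the proneural programme, 2 rose in spontaneous cells (1.99% of all genes). In cardiac and sorted cells 0 were called (2.2% and 2.11% of all genes). At an unadjusted p under 0.05 the counts were 7, 2 and 3 of 10, beside 24%, 22.4% and 19.3% of all genes. Without the 3 doubted libraries 2 rose in cardiac cells, and 1 rose and 2 fell in sorted cells. The risers were Hey1, a Notch-induced repressor (1.596, limma adjusted p = 0.0165), and Id3, which sequesters the E-protein partners of proneural factors (2.08, adjusted p = 0.01). In cardiac and sorted cells Hey1 differed by 1.24 and 0.67 and Id3 by 0.87 and -0.03, the last turning positive under cyclic loess. Hey1 passed in cardiac cells without the library labelled sorted CPC replicate 1 or 3, without both replicates 2 and 3 (adjusted p = 0.00818), with a replicate block (adjusted p = 0.049) and with the 6 compared arrays alone (adjusted p = 0.0177). In sorted cells it passed without replicate 3 or without replicates 2 and 3 (adjusted p = 0.0301), and Id3 passed in cardiac cells without cardiac replicate 1. Hey1 lost its spontaneous call when replicate 2 or 3 of either group was dropped (adjusted p up to 0.0787), and Id3 when spontaneous replicate 2 was (adjusted p = 0.0534). Hes1, a Notch-induced repressor that acts alongside Hes5, differed by 0.77, 0.48 and 0.82 (adjusted p = 0.0533, 0.241 and 0.0589), and by 0.71 and 0.82 in cardiac and sorted cells without the 3 libraries. Rest, which represses neuronal genes outside neurons, differed by -0.62, -0.38 and -0.60 (adjusted p = 0.0555, 0.248 and 0.0891), and by -0.54 and -0.72 without the 3 libraries.

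Among 12 proteins of neural progenitors, beside which Nes stands, 3 rose in spontaneous cells, 1 in cardiac and 2 in sorted cells. Of all genes 1.99%, 1.26% and 0.787% rose. The list medians were 0.03, -0.02 and 0.14. Ncam1 (-0.65, -0.72 and -0.79) and Dll1 (-0.96, -0.26 and -0.04) went the other way without a call. Prom1, a membrane glycoprotein of stem and progenitor cells, rose in all 3 groups (1.39, 1.504 and 1.58, limma adjusted p = 0.00396, 0.00325 and 0.00277), with 1.78 and 1.17 in cardiac and sorted cells without the 3 doubted libraries. Gli3, a Hedgehog pathway factor, rose in spontaneous (1.40, adjusted p = 0.00335) and sorted cells (1.198, adjusted p = 0.0102), the second call being lost without iPSC replicate 1 (adjusted p = 0.0522) or without the libraries labelled sorted CPC replicates 2 and 3 (adjusted p = 0.0537). In cardiac cells it differed by 0.87, under the minimum, and passed without cardiac replicate 1. Cdh2, the N-cadherin of neural and mesodermal cells, rose by 3.99 in spontaneous cells (adjusted p = 0.0145), a call that ended with any of 4 arrays dropped, iPSC replicates 1 and 2 and spontaneous replicates 2 and 3 (adjusted p up to 0.0602). In cardiac and sorted cells Cdh2 differed by 3.06 and 2.39 and did not pass (adjusted p = 0.061 and 0.159). It passed in cardiac cells without cardiac replicate 1 or the library labelled sorted CPC replicate 1 or 3, and in sorted cells without that labelled replicate 3 (3.67, adjusted p = 0.0052) or without both replicates 2 and 3 (4.69, adjusted p = 0.00268). The 22 neuronal cytoskeleton and differentiation genes had median differences of 0.01, 0.07 and -0.03. Over all arrays 2, 1 and 1 were called lower (1.57%, 0.943% and 1.32% of all genes) and 0 higher. Without the 3 doubted libraries 3 were called lower and 1 higher in spontaneous cells, and likewise in cardiac cells. Without a call over all arrays, Nefl differed by 1.20, 0.61 and 1.59 and Nefm by 0.90, 0.72 and 1.09. Stmn2, also uncalled, went the other way (-1.30, -1.32 and -0.86). Syp differed by 0.56, 0.62 and 0.56 (limma adjusted p = 0.0145, 0.013 and 0.0212), upward but under the minimum. Tubb2b, a β-tubulin of developing neurons, fell in all 3 groups (-1.15, -1.10 and -1.30, adjusted p = 0.0246, 0.0409 and 0.0205), but each call was lost with 1 array left out. In spontaneous cells the arrays concerned were any at day 0 and spontaneous replicates 1 and 2, in cardiac cells every array of day 0, spontaneous replicates 2 and 3 and cardiac replicates 2 and 3, and in sorted cells iPSC replicates 2 and 3 and the library labelled sorted CPC replicate 1 (adjusted p up to 0.154). Without the 3 doubted libraries Tubb2b differed by -1.25 and -2.10 in cardiac and sorted cells. Mapt, the tau gene, fell in spontaneous cells (-1.07, adjusted p = 0.00138), a call lost without iPSC replicate 3, when the difference was -0.92; in cardiac and sorted cells it differed by -0.98 and -0.86, under the minimum, and the cardiac value passed when iPSC replicate 1 or 2 or cardiac replicate 1 or 3 was left out.

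Pluripotency, mesoderm, endoderm and primed epiblast markers moved with the day, while neural crest, endocrine and sensory markers changed little. The mean of 8 pluripotency markers was 10.75 to 11.02 on the day 0 arrays and 8.28 to 9.72 on the day 4 arrays, with 6, 5 and 5 of 8 called lower in spontaneous, cardiac and sorted cells. The mean of 9 mesoderm markers was 6.55 to 6.63 at day 0 and 7.18 to 9.44 at day 4, with 6, 3 and 1 called higher. The mean of 8 neural crest markers was 5.81 to 6.13 on all 12 arrays, with 1 of 8 called, Ets1 in spontaneous cells (1.22, limma adjusted p = 0.0112), a call lost when iPSC replicate 2 or spontaneous replicate 2 or 3 was left out (adjusted p up to 0.0614). Of 7 endocrine and sensory markers, from cells that also use Pax6 and Neurod1, 0 were called, with 3, 2 and 2 at an unadjusted p under 0.05 (24%, 22.4% and 19.3% of all genes), and their array mean was 6.06 to 6.13 at day 0 and 5.73 to 6.004 at day 4. The mean of 6 endoderm markers was 5.92 to 6.11 at day 0, 6.52 to 7.64 in spontaneous, 7.95 to 8.71 in cardiac and 6.46 to 7.58 in sorted cells, with 1, 4 and 0 called higher, among them in cardiac cells Ttr (4.52, adjusted p = 0.00115) and Apob (3.84, adjusted p = 0.00262). The mean of 5 primed epiblast markers was 8.19 to 8.69 at day 0 and 8.74 to 10.21 at day 4, with 1, 3 and 2 called higher. Fgf5 was called in all 3 groups (3.15, 3.71 and 4.201, limma adjusted p = 0.000517, 0.000431 and 0.000168). Utf1, of the same list, went the other way in spontaneous cells, reading 11.21 to 11.61 at day 0 and 9.205 to 10.14 there. It read 9.82 to 11.87 in cardiac and 7.05 to 11.15 in sorted cells, and had no call over all arrays. Its 11.87 was on cardiac replicate 1, and its 7.05 in the library labelled sorted CPC replicate 1. Without the 3 doubted libraries 1 of these 5 primed epiblast markers was called lower in spontaneous cells and 1 in cardiac cells, with 2 and 3 called higher. Without the 3 doubted libraries 7, 6 and 6 pluripotency markers were called lower, and 8, 7 and 7 mesoderm and 3, 3 and 2 endoderm markers higher. The part of the pluripotency, mesoderm, endoderm and primed epiblast shifts in the changes of Sox11, Nes, Pax6 and Neurod1 was not tested.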

How the data were processed

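Biotin-labelled cDNA from total RNA was hybridised to 1-colour Affymetrix gene arrays, 1 per sample, per the labels' protocols. The authors deposited log2 signals, made by RMA with Affymetrix Expression Console 1.3.1 according to the submitters' processing notes. The base of the log was inferred from the range of values. Array medians lay between 6.09 and 6.26. Which genome build the probes follow is not stated here, and precision is limited by the number of arrays.

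Of 35557 probe sets, the platform annotation gave 21789 a lone gene symbol and 1621 several, and it did not list 12147. Where a gene had more than 1 probe set (999 genes), the brightest on average was used, for 19938 genes in all. The gene table matched 21698 Entrez identifiers and changed 0 symbols. Groups followed the labels. A limma model (3.58.1, in R 4.3.3) of 12 arrays had 1 mean per group, an intensity trend, 8 residual and 5.01 prior degrees of freedom. Tests were two-sided, with Benjamini-Hochberg adjustment over all genes. SEs and 95% intervals come from the moderated contrast, SDs from the arrays of a group. The model was tested on simulated data. Alternatives were the replicate block, no trend, a filter on dim genes, means of probe sets, 3 other scalings, the compared arrays alone, no minimum difference and each array left out. Leaving out the 3 doubted libraries, which were chosen by their low Kdr level, was added after seeing the data.

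The rule for named genes took all members, per list up to 4 called genes with the largest difference and up to 2 uncalled with the highest mean, and the 3 genes most like each member by Pearson's r, without predicted loci, small RNAs and genes of olfactory or vomeronasal receptors. Of these, the text gives those it needs, with Kdr and Pdgfra for the labels and Ets1, Ttr, Apob and Fgf5 as called markers of other cells. Utf1, Syp, Nefl, Nefm, Ncam1 and Dll1 are given as genes, uncalled over all arrays, that went against the called genes of their lists. Stmn2 is given beside Nefl and Nefm. Members and lists were chosen with earlier results of these data known.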

Additional observations from a re-analysis of the deposited data

How the results depend on the processing

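The calls of Sox11 in all 3 comparisons with day 0 and of Nes in sorted cells held under every alternative run, and so did those of Neurod1 in spontaneous and sorted cells except that the filter on dim genes removed Neurod1. This filter kept 10767 genes and 5 of 10 members. It left 2 members and 666 of the genes kept called in spontaneous cells, and 2 members by the F test. The same replicate number did not pair the arrays (correlations of deviations from -0.38 to 0.31, with 5 of 12 arrays nearest to their own number). With a replicate block 4, 3 and 3 members and 688, 435 and 416 genes were called against day 0, and 3 members by the F test. Without a minimum difference 1943, 1231 and 1019 genes were called in spontaneous, cardiac and sorted cells. Median centring, and the 6 compared arrays alone, gave 0 calls between sorted and spontaneous cells.

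Without the libraries labelled sorted CPC replicates 2 and 3, calls in sorted cells numbered 824 against day 0, 98 against cardiac and 5 against spontaneous cells. Without cardiac replicate 1 as well they were 1019, 115 and 110, and cardiac cells had 806 against day 0. In both settings Sox3 and Neurog1 in sorted cells turned to -0.076 and 0.103, and Nes in sorted against cardiac cells turned to -0.037 and -0.403. Neurog2 in spontaneous cells turned to 0.061, 0.073 and 0.074 under median centring, repeated quantile normalisation and cyclic loess, and Id3 in sorted cells to 0.0093 under cyclic loess.

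With 1 array left out, 2 to 4 members and 430 to 771 genes were called in spontaneous cells, and 1 to 4 members and 284 to 653 genes in cardiac cells. In sorted cells 3 to 4 members and 294 to 608 genes were called against day 0. Calls numbered 0 to 1 between cardiac and spontaneous cells, 0 to 1 between sorted and cardiac cells and 0 to 18 between sorted and spontaneous cells. Uncalled differences from day 0 that changed sign ran from -0.035 to 0.020 for Neurog2 in spontaneous cells and, in sorted cells, from -0.280 to 0.0092 for Sox1, -0.088 to 0.191 for Sox3, -0.183 to 0.191 for Neurog1, -0.016 to 0.211 for Neurog2, -0.042 to 0.228 for Hes5 and -0.263 to 0.207 for Id3. Nes in cardiac against spontaneous cells ran from -0.049 to 0.577. Of the other 27 member differences between day 4 groups, 0 were called in any setting by limma and 13 changed sign in at least 1; the causes were not tested.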
